A study of Rattus norvegicus with 2 samples.

Results

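The genes of cholesterol and fatty acid synthesis were followed in keratinocytes from the epidermis of newborn rats (called NRK cells in the labels), the epithelial cells of the outer skin, after 5 days in culture with or without all-trans retinoic acid (RA), the vitamin A metabolite that binds nuclear receptors. The 35 genes were chosen by name, as enzymes of both pathways, their regulators and a few genes of sterol handling. Of these, 34 had a probe set whose platform annotation gives exactly 1 gene symbol, out of 22093 such genes on the array. For Hmgcs1 no level was analysed here, and only its start region was read. The RA culture received 5 µM RA for 5 days, and the culture without RA is taken to be the dimethyl sulfoxide vehicle control that the design text names, although its title carries no treatment mark. Cells of both arrays were grown in medium with hydrocortisone and 10% fetal bovine serum that was renewed every 24 h. The labels give no strain, and whether RNA of several cultures was pooled on an array is not stated in them.

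Each group holds 1 array, so the values below carry no error, no difference could be tested, and treatment and culture cannot be told apart. Levels are log2 signals as deposited, every difference is the level with RA minus the level without RA, in log2 units, and a difference of 1 unit is called 2-fold, on the deposited scale only. The median of all deposited values, 3.81, served as a floor, and a gene was counted if it reached this level on at least 1 array. Near the floor signal can be mostly background, so that differences which end there can be too small.

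Animal cells build cholesterol from acetyl-CoA through mevalonate, farnesyl diphosphate, squalene and lanosterol, and build fatty acids from acetyl-CoA through malonyl-CoA, followed by elongation and desaturation of the chains. Sterol regulatory element binding proteins (SREBPs), made from Srebf1 and Srebf2, are membrane-bound transcription factors that switch on most of these genes once the escort protein SCAP carries them out of the endoplasmic reticulum, and the INSIG proteins hold SCAP back when sterols are plentiful. In epidermis both pathways feed the lipids of the water barrier, in which cholesterol, free fatty acids and ceramides lie between the cornified cells.

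There were 33 members above the floor. Signal was 2-fold or more higher with RA for 11 of them, against 7.88% of all 14274 genes above the floor, and 2-fold or more lower for 2, against 5.63%. The median difference of the members was 0.37, against -0.026 for all genes above the floor. A positive difference was found in 24 of the 33 members, and in 6622 of all 14274 genes above the floor. With a lowess correction fitted to all probe sets, which moved the median of all genes upward, 12 members were higher and 2 lower, against 10.2% and 4.50% of all genes. Without that correction the higher genes were the desaturases Fads1, Fads2 and Scd, the elongases Elovl5 and Elovl6, fatty acid synthase (Fasn), the sterol enzymes Sc5d, Acat2 and Msmo1, the SREBP regulator Insig1 and the sterol carrier Stard4. The lower ones were malic enzyme (Me1) and the cholesterol sulfotransferase Sult2b1. At 4-fold the counts were 4 higher and 1 lower, where 3.05% and 2.0% of all genes passed, and at 1.5-fold they were 15 and 3, where 13.9% and 12.3% passed. Acacb was the only measured member under the floor. In RNA from whole cultures, fewer cells of a type and less RNA per cell cannot be told apart.

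**Figure D1:**
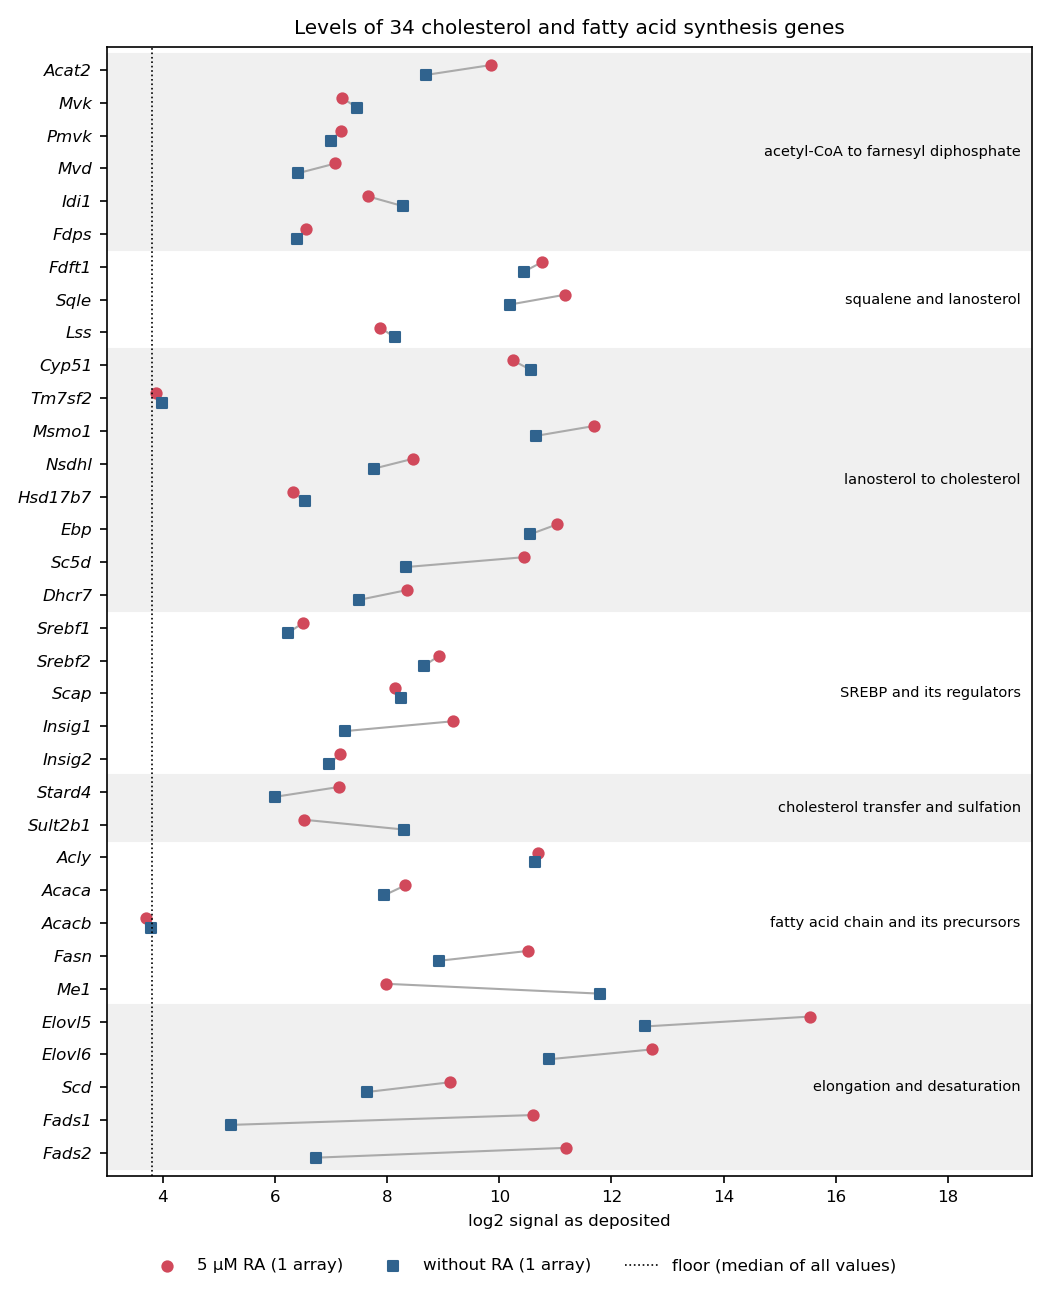
The log2 signal of 34 measured members is plotted on the horizontal axis, with the RA array as circles and the array without RA as squares, grouped by role, and the dotted line is the floor of 3.81. The 5 genes of elongation and desaturation all lie further right with RA, and Me1 has the widest gap in the other direction.

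Control probe sets give a spread to set beside these differences, although the labels do not say what the rat controls target. The central 95% of differences ran from -1.72 to 2.14 for 399 probe sets named as rat positive controls, from -2.17 to 2.01 for 1153 negative controls, and from -1.73 to 2.19 for all genes above the floor. Fads1, Fads2 and Elovl5 lay above all 3 ranges and Me1 below them. Sult2b1 lay just below the range of the positive controls and of all genes, but inside that of the negative controls, and Sc5d lay above that of the negative controls alone. The other 7 members past 2-fold lay inside all 3 ranges. Of the positive controls 12.5% were 2-fold higher and 15.3% lower, and of the negative controls 11.9% and 15.7%. These shares exceed the 7.88% and 5.63% of all genes above the floor.

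**Figure D2:**
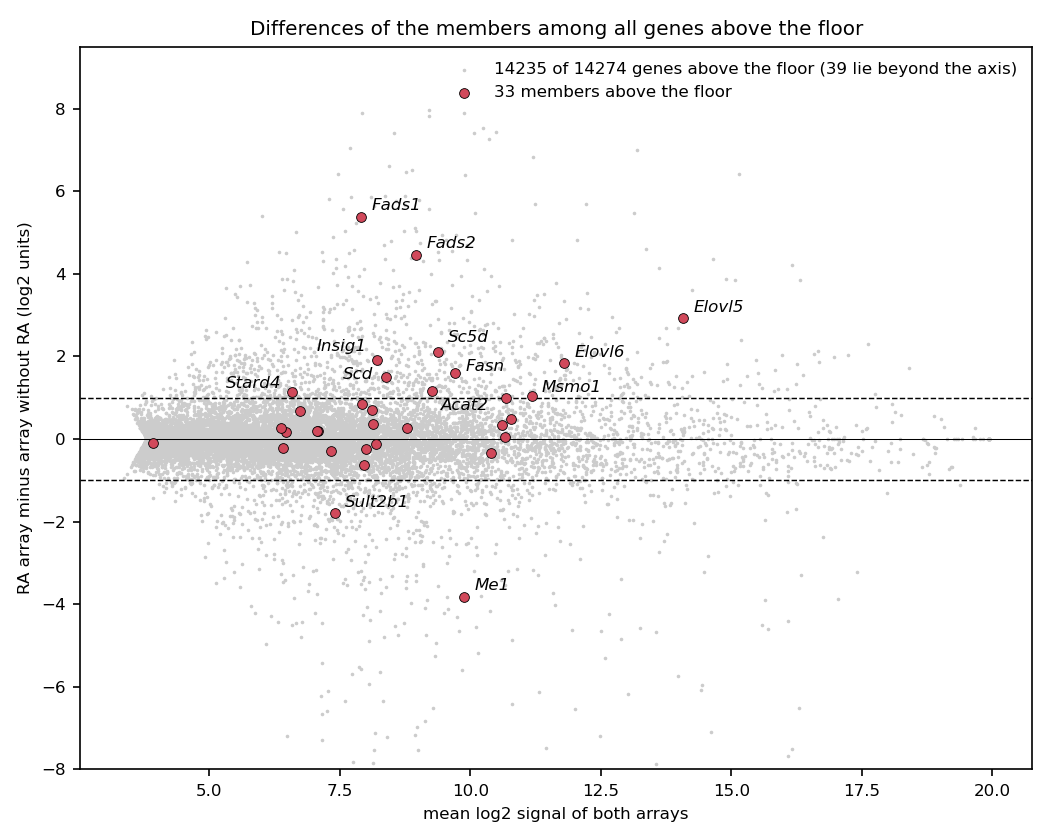
The difference in log2 units is plotted against the mean log2 signal of both arrays, with 14235 of the 14274 genes above the floor in grey (39 lie beyond 8 units), the 33 members in red and dashed lines at 2-fold. Fads1, Fads2, Elovl5 and Me1 stand furthest from 0 among the members.

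Elongation and desaturation was the one role in which all members were at least 2-fold higher with RA, against 7.88% of all genes. Its 5 genes had a median difference of 2.93 and a range from 1.49 to 5.39. These members were chosen with earlier results of the data known. Other elongases and desaturases, given below, were left outside the role, and of those none was 2-fold higher and 3 were 2-fold lower. Fads2 encodes the desaturase that opens the synthesis of long polyunsaturated fatty acids from the dietary linoleic and linolenic acids. Its signal was 11.19 with RA and 6.72 without RA, a difference of 4.47 or 22.1-fold, at the 99.5th percentile of all genes above the floor. Fads1, the desaturase that acts later on the same chains and yields arachidonic acid, had 10.61 with RA and 5.22 without RA, which is 5.39 units or 41.9-fold and the largest difference of the members. The negative controls had medians of 4.47 with RA and 4.57 without RA, so that the level of Fads1 without RA was not far above them. Elovl5 lengthens the polyunsaturated chains between these desaturation steps, and stood at 15.54 with RA and 12.60 without RA, 2.93 units higher. The genes of these consecutive steps therefore had the 3 largest positive differences of all members.

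The other members of this role act on saturated and monounsaturated chains. Elovl6, which lengthens palmitate to stearate, had 12.72 with RA and 10.89 without RA, a difference of 1.84. It has 2 more probe sets, which read 11.55 and 8.31 with RA and 9.71 and 7.04 without RA, with differences of 1.84 and 1.27. Scd, the stearoyl-CoA desaturase that makes oleate, was at 9.13 with RA and 7.63 without RA, 1.49 units higher. Its close relative Scd2 was at 19.25 with RA and 18.77 without RA, near the highest value of the table, with a difference of 0.48, and the probe sets of these relatives may share signal.

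Other enzymes of elongation and desaturation, outside the member list, were counted beside these. Of these, 10 reached the floor, and they include reductases and dehydratases of the elongation cycle. Upward 0 passed 2-fold and downward 3 (30.0%), against 7.88% and 5.63% of all genes, and all 3 were elongases. Elovl4, which makes the ultra-long chains of epidermal acylceramides, was at 6.03 with RA and 12.55 without RA. Elovl7 was at 9.72 with RA and 13.46 without RA, and Elovl1 at 13.34 with RA and 14.89 without RA. The differences of these genes were -6.52, -3.73 and -1.55. The desaturases Scd4 and Fads3 differed by 0.27 and 0.16. Elovl2 and Elovl3 were under the floor on both arrays, so that of the elongase family Elovl5 and Elovl6 were higher and Elovl1, Elovl4 and Elovl7 lower.

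**Figure D3:**
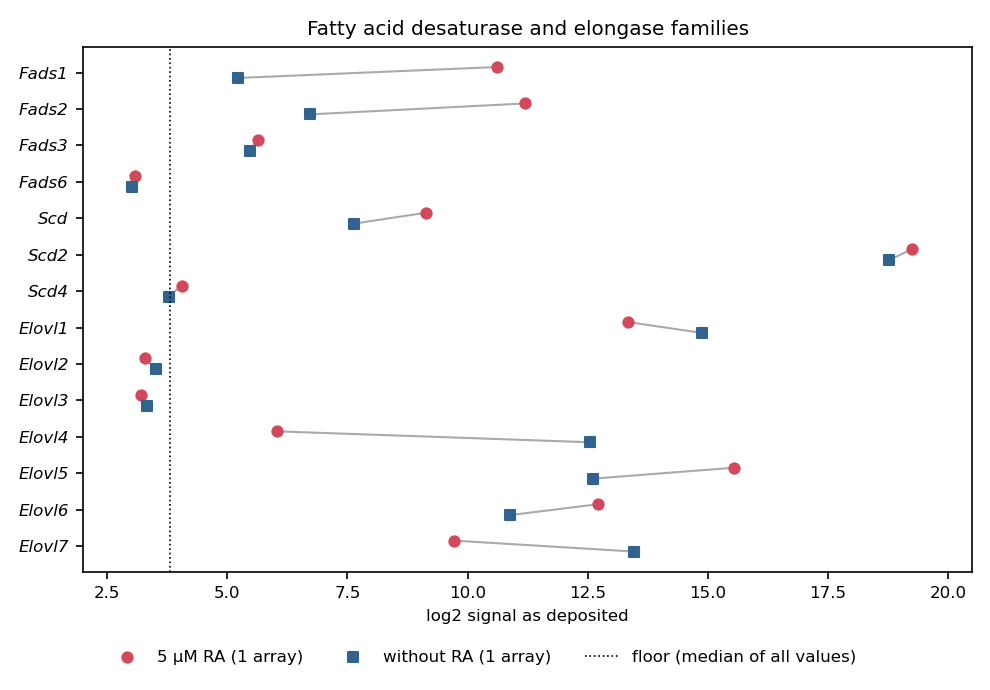
The log2 signal of 14 desaturase and elongase genes is shown on the horizontal axis, with the RA array as circles, the array without RA as squares and the floor as a dotted line. Fads1, Fads2, Scd, Elovl5 and Elovl6 lie higher with RA and Elovl1, Elovl4 and Elovl7 lower, while Fads3 and Scd2 differ by 0.16 and 0.48.

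Fads1 and Fads2 are neighbours on chromosome 1, with no other protein-coding gene between them in the RefSeq order of assembly GRCr8, and they are transcribed away from each other. Fads3, the third gene of the cluster, lies beyond Fads2 and had 5.63 with RA and 5.47 without RA, a difference of 0.16. On the other side of Fads1, the DNA repair nuclease gene Fen1 had 4.63 with RA and 4.38 without RA (0.24), and Tmem258, which encodes a subunit of the oligosaccharyltransferase complex, had 5.71 with RA and 5.76 without RA (-0.052). Rab3il1 differed by -0.11 and the ferritin gene Fth1 by 0.20, while Best1, Myrf and Dagla were under the floor on both arrays. All these neighbours differed by less than 2-fold. Only Fads3, Tmem258 and Fth1 lay above the medians of the negative controls (4.47 with RA and 4.57 without RA) on both arrays. In the other neighbours, signal near background could hide a difference.

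**Figure D4:**
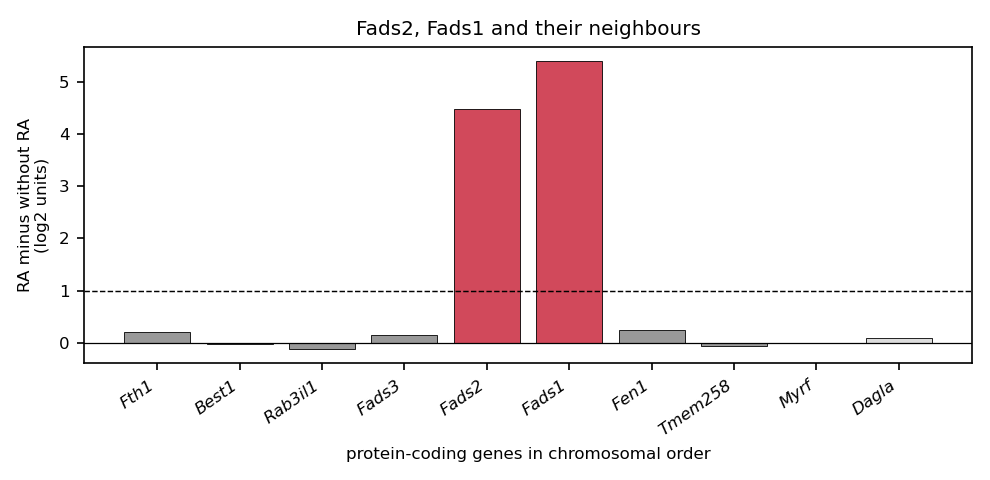
Bars give the difference, with RA minus without RA in log2 units, for Fads2, Fads1 and 8 protein-coding genes around them in chromosomal order, with the dashed line at 2-fold and genes under the floor in the palest grey. Fads2 and Fads1 reach 4.47 and 5.39, and the neighbours lie between -0.11 and 0.24.

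Among the members, the chain-building enzymes and their supply of substrate did not move together. Further genes of fatty acid supply and activation, of which 4 were 2-fold higher and 3 lower, are given below. Fasn, which assembles palmitate, had 10.50 with RA and 8.92 without RA, a difference of 1.59 at the 95.5th percentile of all genes. Acaca, the cytosolic acetyl-CoA carboxylase that supplies it with malonyl-CoA, was at 8.32 with RA and 7.95 without RA (0.37). Acly, which cleaves citrate into cytosolic acetyl-CoA, was at 10.69 with RA and 10.64 without RA (0.046). Acacb, the mitochondrial form of the carboxylase, was at 3.70 with RA and 3.79 without RA, under the floor.

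Me1 had the largest difference of any member toward lower signal. It encodes the cytosolic malic enzyme, a source of the NADPH that fatty acid synthesis consumes. The signal was 7.97 with RA and 11.79 without RA, a difference of -3.82, which is 14.1-fold lower with RA and at the 0.760th percentile of all genes above the floor. Me1 and Fasn, often described as parts of the same lipogenic programme in liver, thus stood on opposite sides of 0.

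The 17 measured enzymes of cholesterol synthesis were all above the floor. Of these, 3 (17.6%) passed 2-fold toward higher signal and 0 toward lower, against 7.88% and 5.63% of all genes. The median difference of the 17 was 0.33, and 11 were positive, against 6622 of all 14274 genes above the floor. Between acetyl-CoA and farnesyl diphosphate, only Acat2 of 6 genes passed 2-fold. It encodes the cytosolic thiolase that joins acetyl-CoA units, and had 9.85 with RA and 8.70 without RA (1.15). The mevalonate decarboxylase gene Mvd was at 7.08 with RA and 6.40 without RA (0.68), and the isomerase gene Idi1 had the largest negative difference of the sterol enzymes, at 7.65 with RA and 8.28 without RA (-0.63). The kinases Mvk and Pmvk and the synthase Fdps, which makes farnesyl diphosphate, differed by -0.28, 0.18 and 0.16.

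None of the 3 genes that lead from farnesyl diphosphate to lanosterol passed 2-fold. Sqle, the squalene epoxidase, lay just short of the threshold, at 11.17 with RA and 10.19 without RA, a difference of 0.98, and passed it under each of 4 other scalings of the arrays. Squalene synthase (Fdft1) was at 10.77 with RA and 10.44 without RA (0.33). Lanosterol synthase (Lss) was at 7.88 with RA and 8.13 without RA (-0.25), and its other probe set read 7.39 on both arrays.

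Among the 8 enzymes that turn lanosterol into cholesterol, Sc5d had the largest difference. It encodes lathosterol oxidase, the sterol desaturase of the penultimate step, and had 10.43 with RA and 8.33 without RA, a difference of 2.10 or 4.29-fold at the 97.3rd percentile of all genes. Msmo1, the oxidase that removes methyl groups from the sterol ring, was just past the threshold, at 11.69 with RA and 10.66 without RA (1.03). Dhcr7, the reductase of the last step, was at 8.35 with RA and 7.50 without RA (0.86). Nsdhl, a sterol dehydrogenase, was at 8.46 with RA and 7.76 without RA (0.70), and the isomerase gene Ebp at 11.03 with RA and 10.55 without RA (0.48). The demethylase gene Cyp51, the first enzyme after lanosterol, had 10.24 with RA and 10.57 without RA (-0.33), and the ketoreductase gene Hsd17b7 had 6.32 with RA and 6.53 without RA (-0.21). Tm7sf2, a sterol reductase, was at 3.87 with RA and 3.98 without RA, close to the floor.

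The regulators of the SREBP system were nearly level on both arrays apart from Insig1. Insig1, itself a well-known SREBP target gene, had 9.17 with RA and 7.24 without RA, a difference of 1.93 or 3.80-fold at the 96.7th percentile of all genes. Its relative Insig2, which is less dependent on SREBP, had 7.16 with RA and 6.96 without RA (0.20), so that the pair differed by 1.73 units in their differences. Srebf1, the form more tied to fatty acid genes, had 6.50 with RA and 6.24 without RA, and Srebf2, the form more tied to cholesterol genes, had 8.93 with RA and 8.66 without RA. Both differences were 0.27. Scap was at 8.14 with RA and 8.25 without RA (-0.11). These are RNA levels, and the cutting of SREBP proteins that makes them active was not measured.

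The members that move or modify finished cholesterol went in opposite directions. Stard4, a soluble sterol carrier, had 7.15 with RA and 6.01 without RA, a difference of 1.14. Sult2b1, which makes the cholesterol sulfate of the upper epidermis, had 6.51 with RA and 8.31 without RA, a difference of -1.79, which is 3.47-fold lower with RA and at the 2.37th percentile of all genes.

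To show what the start regions of these genes hold, windows from 250 bases before to 50 bases after the start were read from the RefSeq promoter table of assembly GRCr8, which matched 28 of the 35 members. Fads1 and Fads2 are printed because they had the largest differences, with capitals on the NF-Y box CCAAT and the GC box GGGCGG on either strand, which do not overlap here. Insig1, Sc5d, Elovl5 and Sult2b1 are printed because they are the members past 2-fold whose window holds the E-box CACGTG, a site that SREBPs and other helix-loop-helix factors can bind, and capitals mark it there. Windows are given 5′ to 3′ on the gene's strand, Fads1 at chr1:216252442-216252741 (plus), Fads2 at chr1:216171984-216172283 (minus), Insig1 at chr4:8057720-8058019 (minus), Sc5d at chr8:51538228-51538527 (minus), Elovl5 at chr8:87670914-87671213 (plus) and Sult2b1 at chr1:105397695-105397994 (minus).
Fads1: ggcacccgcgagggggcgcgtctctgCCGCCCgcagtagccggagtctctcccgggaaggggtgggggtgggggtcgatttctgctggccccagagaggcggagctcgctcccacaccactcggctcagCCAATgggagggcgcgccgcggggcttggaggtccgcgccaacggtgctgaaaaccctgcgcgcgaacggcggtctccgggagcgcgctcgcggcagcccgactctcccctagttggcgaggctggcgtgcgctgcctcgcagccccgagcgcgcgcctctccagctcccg
Fads2: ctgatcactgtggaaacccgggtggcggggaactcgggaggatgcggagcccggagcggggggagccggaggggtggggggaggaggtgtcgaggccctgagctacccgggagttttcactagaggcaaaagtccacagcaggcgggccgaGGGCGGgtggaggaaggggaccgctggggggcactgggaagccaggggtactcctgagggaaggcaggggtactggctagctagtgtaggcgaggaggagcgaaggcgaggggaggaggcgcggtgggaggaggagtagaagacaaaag
Insig1: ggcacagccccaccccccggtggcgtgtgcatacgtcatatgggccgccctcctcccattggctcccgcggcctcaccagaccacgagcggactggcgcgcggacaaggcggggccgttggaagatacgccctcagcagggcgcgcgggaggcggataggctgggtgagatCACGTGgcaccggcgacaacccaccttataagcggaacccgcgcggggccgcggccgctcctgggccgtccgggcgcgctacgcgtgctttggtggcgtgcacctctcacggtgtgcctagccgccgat
Sc5d: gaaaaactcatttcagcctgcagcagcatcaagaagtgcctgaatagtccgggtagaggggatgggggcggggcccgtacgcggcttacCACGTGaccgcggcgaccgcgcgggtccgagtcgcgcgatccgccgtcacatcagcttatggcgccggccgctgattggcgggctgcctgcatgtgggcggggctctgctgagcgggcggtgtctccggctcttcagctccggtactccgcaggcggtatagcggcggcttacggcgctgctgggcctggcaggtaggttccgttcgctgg
Elovl5: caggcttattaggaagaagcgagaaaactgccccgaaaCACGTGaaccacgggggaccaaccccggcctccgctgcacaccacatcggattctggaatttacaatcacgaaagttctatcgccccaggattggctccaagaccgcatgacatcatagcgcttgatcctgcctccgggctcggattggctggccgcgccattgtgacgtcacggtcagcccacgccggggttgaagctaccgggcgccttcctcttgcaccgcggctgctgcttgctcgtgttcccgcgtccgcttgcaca
Sult2b1: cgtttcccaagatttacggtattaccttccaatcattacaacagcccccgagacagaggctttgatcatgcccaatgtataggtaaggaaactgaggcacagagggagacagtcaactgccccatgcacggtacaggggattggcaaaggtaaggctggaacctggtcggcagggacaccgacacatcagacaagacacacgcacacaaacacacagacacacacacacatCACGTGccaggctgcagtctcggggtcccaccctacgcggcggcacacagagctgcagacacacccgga

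The E-box CACGTG was found in 5 of 28 member windows (17.9%), against 7.08% of 27457 genes in the table. It lay in 4 of the 10 windows of members past 2-fold, which include the lower gene Sult2b1, and in 1 of the 17 windows of measured members that did not pass it (Scap). The remaining window was that of Hmgcs1, which has no level here. Fasn, Elovl6 and Stard4, also past 2-fold, had no window. The match started at position -79 from the start in Insig1, -161 in Sc5d, -212 in Elovl5 and -19 in Sult2b1. The NF-Y box was in 21 of 28 member windows and in 39.6% of all genes, and the GC box in 21 of 28 and in 36.0%. In members past 2-fold the NF-Y box was in 6 of 10 windows, against 14 of 17 for the other measured members. The GC box was in 7 of 10, against 13 of 17. These sets of windows are small, and the gaps between them were not tested. Member windows also had a higher median share of G and C, 64.2% against 52.3%, and the part of base composition in these shares was not tested. Neither the SREBP element TCACNCCAC (1.25% of all genes), the LXR element (AGGTCA, 4 free bases, AGGTCA) nor any of the RA receptor elements (AGGTCA or AGTTCA repeated after 5 free bases, AGGTCA repeated after 2) was found in any member window on either strand. The last 4 were in at most 3 genes of the table. A match is a description of letters in this window and not a binding site.

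Genes around both pathways were counted for comparison, in 6 lists of 75 genes that hold no member. Among the 69 that reached the floor, 11 (15.9%) passed 2-fold upward and 6 (8.70%) downward, and the median difference was 0.20. Over all genes above the floor the shares were 7.88% and 5.63%, and the median was -0.026. The single lists below are small and are to be read beside the same shares. In fatty acid supply and activation 4 of 11 genes (36.4%) were 2-fold higher and 3 (27.3%) lower. The acyl-CoA synthetases, which activate fatty acids, split. Acsl4, which prefers arachidonic acid, had 11.02 with RA and 7.67 without RA (3.34), Acsl3 had 13.69 with RA and 10.52 without RA (3.18), and Acsl1 had 6.83 with RA and 10.16 without RA (-3.33). The others past 2-fold in that list, chosen for mention once their values were known, were the citrate carrier gene Slc25a1 (1.30) and the acetyl-CoA synthetase gene Acss2 (1.19) toward higher signal, and the acetoacetyl-CoA synthetase gene Aacs (-1.12) and the lipase gene Pnpla3 (-1.31) toward lower.

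Of 14 genes of cholesterol efflux, storage and lysosomal egress, 3 (21.4%) passed 2-fold upward and 0 downward, against 7.88% and 5.63% of all genes. Lpcat3, which puts polyunsaturated chains into phospholipids, had 14.08 with RA and 11.49 without RA (2.59). The sterol exporter gene Abcg1 had 11.75 with RA and 9.39 without RA (2.36), and Soat1, which esterifies cholesterol, had 12.26 with RA and 10.97 without RA (1.29). Of 13 triacylglycerol and lipid droplet genes, 2 (15.4%) were higher and 0 lower. The triacylglycerol lipase gene Pnpla2 was at 10.82 with RA and 7.21 without RA (3.61). The droplet coat gene Plin2 was at 8.08 with RA and 5.44 without RA (2.64), whereas the acyltransferase gene Dgat2 differed by -0.90. The prenyl branch, which leaves the pathway at farnesyl diphosphate, had 1 of 11 (9.09%) higher, near the share of all genes. It was Nus1 of dolichol synthesis (1.05), with Rabggta at 0.72 and Fnta at -0.52. SREBP processing and turnover had 1 of 10 (10.0%) higher, also near that share. It was the vesicle coat gene Sec24d (1.35), with Erlin1 at -0.89 and Sar1b at 0.48. Neither of these 2 lists had a gene 2-fold lower.

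**Figure D5:**
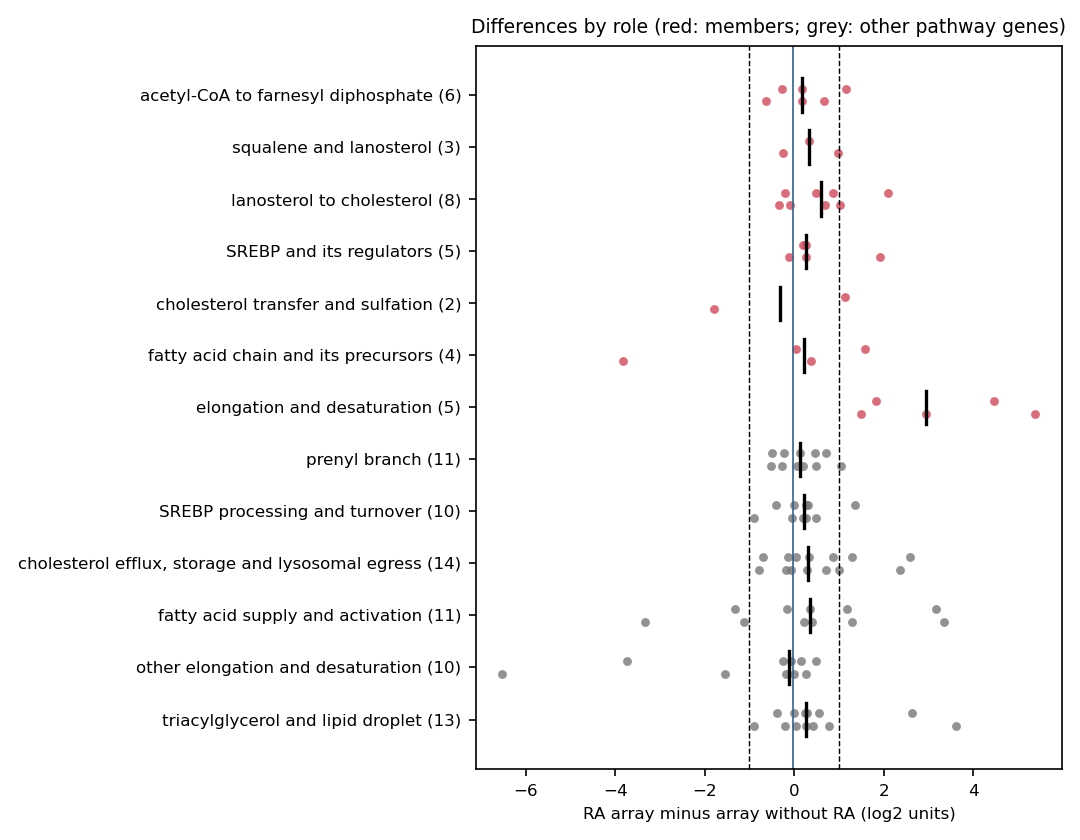
Each point is the difference of a gene above the floor in log2 units, members by role in red and other pathway genes in grey, with the number of genes in brackets, black bars at the medians, dashed lines at 2-fold and a blue line at the median of all genes, -0.026. The row of elongation and desaturation lies wholly to the right of 2-fold, with its median at 2.93. The grey row of other elongation and desaturation genes has 0 points past 2-fold upward and 3 downward.

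Marker genes describe the cells that gave these values. Of 13 keratinocyte markers, all above the floor, 9 (69.2%) passed 2-fold downward and 0 upward, against 5.63% and 7.88% of all genes. The summed log2 signal of the 13 was 143 with RA and 202 without RA. The 9 were Krt1 (-14.20), Krt10 (-11.65), Krt14 (-7.68), Dsg3 (-6.18), Col17a1 (-5.26), Trim29 (-3.90), Sfn (-3.84), Perp (-3.24) and Tp63 (-2.77). Krt1 was at 4.78 with RA and 18.98 without RA, and Krt10 at 5.94 with RA and 17.59 without RA. The other 4, Krt15, Cdh1, Itga6 and Itgb4, differed by 0.054, 0.81, -0.28 and -0.63. Sebaceous glands are lipid-making skin glands, and 7 of their 11 markers (Mc5r, Awat1, Awat2, Far2, Fabp4, Pparg and Cidea) lay between 2.89 and 4.38 with RA and between 2.94 and 4.58 without RA. The list's summed signal was 68.3 with RA and 60.7 without RA, with Krt79 at 13.20 with RA and 5.23 without RA, Prdm1 at 5.24 with RA and 6.14 without RA, Mgst1 at 10.97 with RA and 11.66 without RA, and Soat1 as given above. Of its 8 markers above the floor, 2 (25.0%), Krt79 and Soat1, were 2-fold higher and 0 were 2-fold lower, against 7.88% and 5.63% of all genes. A negative difference was found in 5 of the 8, and in 7583 of all 14274 genes above the floor. The small lists that follow are to be read beside the same shares. None of 9 adipocyte markers differed by 2-fold, and they summed to 33.4 with RA and 33.6 without RA. Fibroblast markers summed to 38.2 with RA and 40.5 without RA, with Col3a1 at 4.90 with RA and 7.03 without RA as their only marker past 2-fold. Melanocyte markers summed to 30.3 with RA and 31.1 without RA, and macrophage markers to 38.9 with RA and 32.3 without RA. Cd68 was at 11.31 with RA and 5.41 without RA, and Cd14 at 7.24 with RA and 6.40 without RA. Under the floor on both arrays were 4 of 9 adipocyte, 6 of 10 fibroblast, 5 of 8 melanocyte and 6 of 8 macrophage markers. Much of these 4 sums is therefore signal near background. The part of the shift in keratinocyte markers in the member values was not tested.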

How the data were processed

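Total RNA was labelled with biotin by a GeneChip whole-transcript kit, per the labels' protocols, and measured on 2 arrays. The deposited table gives 1 log2 signal per array for 70580 probe sets. The authors used RMA (background correction, normalization and probe summary) and also the Transcriptome Analysis Console, both per the submitters' processing notes. No header states the log base, which was taken from the range of values. On the RA array 670 values exceeded 16, the log2 ceiling of a 16-bit scanner, and without RA 963 did, so the scale was stretched in a step not given in the sources used here. The genome build of the arrays is not given there either. No member reached the highest value.

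Of the probe sets, 23446 had 1 symbol and were used. Symbols were updated through Entrez IDs, which changed no member. Where a gene had several, the brightest by the mean of both arrays stood for it. Members, lists and alternatives were chosen with earlier results of these data known. Named in full were members past 2-fold, the SREBP regulators, Sult2b1 and Stard4, and from each pathway list the 3 genes with the largest absolute difference. The computation used Python 3.11.15, numpy 2.4.6, pandas 2.3.3 and statsmodels 0.14.6, and counting and normalization were tested on simulated data. The number of arrays, 1 per group, limits the precision, and no test was possible.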

Additional observations from a re-analysis of the deposited data

How the results depend on the processing

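The counts of 11 members higher and 2 lower were recomputed under 4 other scalings, 2 other choices of probe set and 4 treatments of low or highest values. The lower count was 2 in each, and the higher count was 11 or 12. It was 12 with array medians set equal, after lowess over all or over 1-symbol probe sets, and after quantile normalization, where Sqle passed 2-fold. At 1.5-fold 15 were higher and 3 lower (13.9% and 12.3% of all genes), and at 4-fold 4 and 1. The members' median difference ran from 0.35 without a floor to 0.64 after lowess over all probe sets, which moved the median of all genes from -0.026 to 0.075 and the share of higher genes among those past 2-fold to 69.3%, against 58.3%. Relative to the median of all genes it was 0.56 under that lowess, against 0.40. The mean of the members was 0.70. Of 329 recomputed differences of single members, 324 moved by less than 0.34, a tolerance set from the spread of the spike controls, and 0 of those past 2-fold changed sign. Most of these recomputed values could not move. Apart from Lss and Elovl6, which have several probe sets, only the 4 scalings could change the difference of a counted member. The spike controls had medians of 3.29 with RA and 3.28 without RA, under the floor. The 5 others were Msmo1 (1.41), Elovl5 (3.58) and Elovl6 (2.28) after lowess over all probe sets, Elovl5 after quantile normalization (3.37) and Elovl6 by its dimmest probe set (1.27). No paired analysis was possible because there is only 1 array with RA and 1 without, and for the same reason replicates could not be left out in turn.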
